A study of Mus musculus with 5 samples.

Results

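The genes described here encode the proteins of the cytoplasmic ribosome. They were taken by name, from gene symbols of the Rpl and Rps series together with Rpsa, Rplp0, Rplp1 and Rplp2, and the kinases that phosphorylate Rps6 were left out. Probe sets with a single gene symbol gave 49 such genes on 105 probe sets, out of 18193 genes measured on the arrays. Of these, 26 belong to the large subunit and 23 to the small subunit. The reference gene table holds 84 protein-coding symbols of this type, so the list is incomplete: 28 further symbols occurred only on probe sets that carry several symbols, and Rplp1, Rpl5, Rpl10 and Rps23 are among the genes not described here. Where a gene had several probe sets, the brightest by its mean over the arrays stands for it, here as for all other genes.

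RNA came from E14 mouse embryonic stem cells grown on mouse embryo fibroblast feeder layers, in medium with serum replacement and leukaemia inhibitory factor. The 2 groups were wild type (WT, 2 arrays) and Trip12 mut/mut, cells with both copies of Trip12 mutated (3 arrays). Trip12 is a ubiquitin ligase of the HECT type. The lesion itself, the number of mutant clones behind the 3 arrays and the removal of feeder cells before extraction are not given in the sources used here. Each array is labelled a biological replicate; separate cultures are not stated, so the p-values measure only the spread between these arrays. In RNA from a mixture, fewer cells of a type and less RNA per cell cannot be told apart.

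A mammalian ribosome joins a small subunit, which reads the messenger RNA, to a large subunit, which forms peptide bonds and passes the new chain out through a tunnel. Ribosomal protein messenger RNAs are among the most abundant in growing cells and begin at a cytosine followed by a stretch of pyrimidines, the 5′ terminal oligopyrimidine or TOP motif, through which mTORC1 and Larp1 govern their translation and stability. When ribosome assembly is disturbed, free Rpl5 and Rpl11 can bind Mdm2 and stabilise p53.

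The start regions of 8 of these genes are shown to set the pyrimidine run around the start beside the differences described next, and they include genes at both ends of that range. Sequences are those of RefSeq on GRCm38.p6, each running 5′ to 3′ on the coding strand from 12 bases before the annotated start through the first 18 bases of the transcript. Capitals mark the longest run of C and T in the 30 bases printed.
Rpl14, chr9:120571505-120571534, plus strand: cgggCCCTCTCTCTTCTCgctgagcgccgc
Rpl12, chr2:32961700-32961729, plus strand: ggagcaggatccgTCTTTTCggctttcggc
Rpl35, chr2:39005114-39005143, minus strand: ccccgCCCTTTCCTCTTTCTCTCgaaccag
Rpl38, chr11:114668568-114668597, plus strand: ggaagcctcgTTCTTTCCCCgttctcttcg
Rps26, chr10:128626489-128626518, minus strand: gggcaagccgccggaTCCTCTTTCgagtct
Rps6, chr4:86857350-86857379, minus strand: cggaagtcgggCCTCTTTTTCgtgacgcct
Rpl39, chrX:37085205-37085234, minus strand: aagctccgcctctagcgaCTTCTTCTaatc
Rpl39l, chr16:10170216-10170245, plus strand: ccaggCCTTTCCggatttccggtggtcgcc
These 8 genes were chosen for printing after their values were seen. The run was 18 bases in Rpl35 and 14 in Rpl14, which were among the genes with lower values on mutant arrays. It was 10 in both Rpl38 and Rps6, which were not. Rps26, lower as well, had 9, and Rpl39, with mutant values on both sides of WT, had 8. Rpl12, also lower, and Rpl39l, a paralogue of Rpl39, had 7 in a row here. In Rpl39l that run lies before the annotated start and so outside the transcript. The runs of Rpl14, Rpl35, Rpl38 and Rps6 span the start, so only part of each lies in the annotated transcript. In Rpl14 more of the run lies before the start than after it. Within 30 bases before and 50 bases after the start, the longest run was 14 in Rpl39, 9 in Rpl39l and 8 in Rpl12. The first base of the annotated transcript was C in 15 of the 51 promoter entries of these genes and G in 20, so most annotated starts do not open on the cytosine of a TOP motif.

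Promoter entries were found for 43 of the 49 genes, with 51 promoters in all. A run of at least 8 C or T on the coding strand, within 30 bases before and 50 bases after the start, was present in 34 of these 51 promoters (66.7%), against 29% of all 32851 promoters in the table. By subunit the share was 71.4% for large and 60.9% for small subunit promoters. The letters CGGAAG, the core bound by ETS-family factors, stood on either strand in 31 of 51 promoters of 300 bases (60.8%), against 16.9% of all. AAGATGGC, the YY1 core, was found in 7.84% against 2.75%, TATAAA in 11.8% against 13.6%, and CCAAT in 27.5% against 37.4%. The 33 genes with a pyrimidine run had a median difference of -0.038 (log2, mutant minus WT) and the 10 without had -0.036. Matches of letters are a description of the sequence and are not measured sites.

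All levels are the deposited log2 values, and a difference is Trip12 mut/mut minus WT unless another pair is named. The Trip12 probe set read 10.17 and 10.25 on the WT arrays, 10.18 on the mutant array labelled replicate 1, and 12.09 and 12.57 on those labelled replicates 2 and 3. No probe set of 45037 differed more than 2-fold between replicate 1 and either WT array, whereas 293 to 545 did between replicates 2 or 3 and a WT array. The mutant group therefore holds an array that reads like WT. It may be mislabelled, which the files do not settle, so every value over all 5 arrays depends on its label. The main counts and medians are given with and without it, and the values on each array are shown for the genes described. Fibroblast markers moved with replicates 2 and 3: the mean level of the 28 markers was 10.29 on both WT arrays, 10.27 on replicate 1, 10.72 on replicate 2 and 10.70 on replicate 3, with 21 of 28 above both WT arrays on replicates 2 and 3 (26.7% of all genes). Their WT means ran from 5.39 (Fap, below the median of all probe sets) to 13.17 (Dcn), and without replicate 1 and dim probe sets 8 of 27 rose and 1 fell by limma with Benjamini-Hochberg adjustment (3.29% and 1.34% of all genes). The 13 pluripotency markers, which include Pou5f1, Nanog and Sox2, averaged 11.25 and 11.26 on WT and 11.25, 11.00 and 11.10 on replicates 1, 2 and 3. They were not uniform. On both replicates 2 and 3, 8 of 13 were below both WT arrays and 2 above (17.5% and 26.7% of all genes). Without replicate 1 and dim probe sets, 0 of the 13 rose and 2 fell by limma with Benjamini-Hochberg adjustment (3.29% and 1.34% of all genes). Lin28a was the lowest of them on replicates 2 and 3 (-0.87 and -1.07 from the WT mean). Esrrb was the highest (0.50 and 0.63). The part of feeder RNA in the ribosomal protein values was not tested.

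Ribosomal protein transcripts gave some of the brightest signals on the arrays. The representative probe sets of 37 of the 49 genes lay in the top 2% of all probe sets, above 11.79, and 35 had a mean of at least 13, where the highest value anywhere was 14.73. The dimmest were Rps16, Rpl3l and Rpl39, at about the median of all probe sets (5.52) or below it. Rps16 read 3.10 and 2.93 on WT and 2.94, 2.93 and 2.79 on replicates 1 to 3, so this probe set gives no usable level for a gene that every cell transcribes. The genes lie on 17 chromosomes, with at most 7 on any of them, and 2, Rpl37a and Rpl7, are on chromosome 1, which also carries Trip12.

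**Figure D1:**
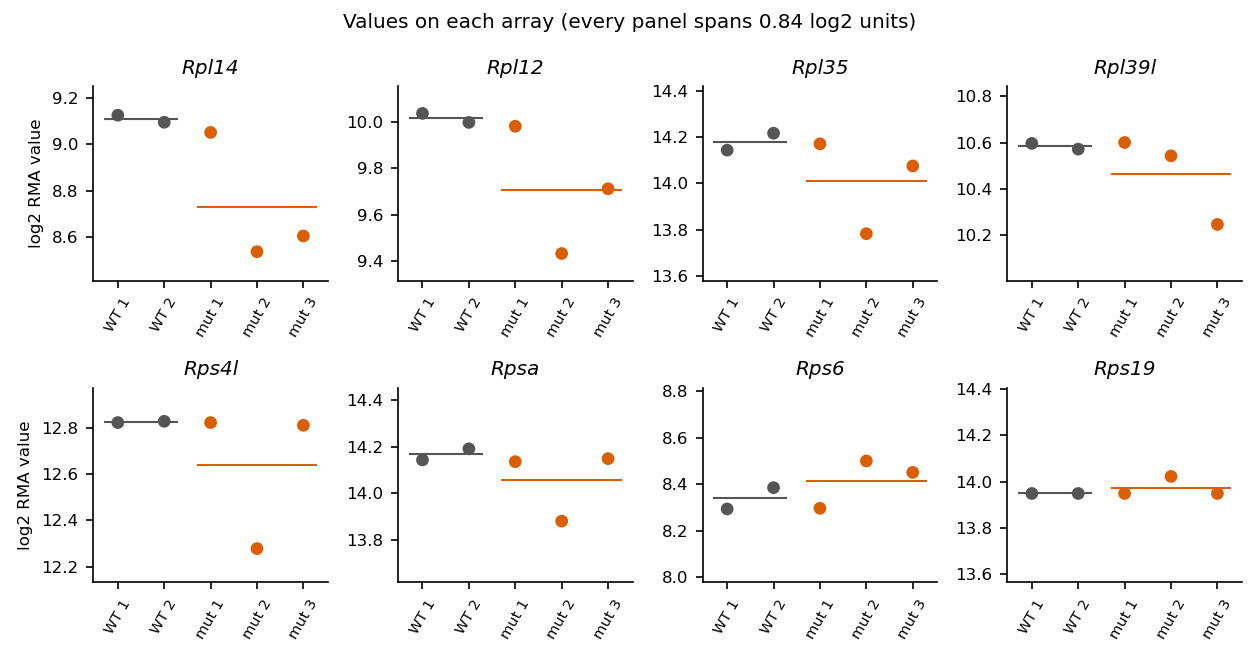
Deposited log2 RMA values of 8 ribosomal protein genes on each array, with a point per array, a line at each group's mean and axes of equal span that do not start at 0. Rpl14 and Rpl12 are lower on mutant replicates 2 and 3, Rpl35, Rps4l and Rpsa mainly on replicate 2 and Rpl39l on replicate 3, while Rps6 is higher on both and Rps19 varies little.

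Over all 5 arrays no ribosomal protein gene changed by the test. With limma and Benjamini-Hochberg adjustment over all 18193 genes, 0 of the 49 genes passed 0.05 (0 also at an unadjusted p under 0.05), and the background was 0 of 18193 genes (0%; 214 at an unadjusted p under 0.05). The differences ran from -0.38 (Rpl14) to 0.08 (Rps6). Their median was -0.048 in the large subunit, -0.016 in the small subunit and 0.019 over all genes. Without the array labelled replicate 3 the subunit medians were -0.012 and 0.0026, so the small subunit changed sign. With the probe sets of each gene averaged they were -0.056 and -0.051, and with the probe set of largest SD -0.079 and -0.065, so the gap between subunits rests on the choice of probe set. Below 0 lay 21 of 26 large subunit genes (80.8%) and 16 of 23 small subunit genes (69.6%), against 43.7% of all genes; without replicate 1 the shares were 76.9%, 65.2% and 43.9%. Only 3 of 49 genes, Rpl14, Rpl12 and Rpl3l of the large subunit, differed by at least 0.25 in either direction, against a background of 17.3%. Of these, Rpl3l was dim, and its WT arrays were 0.31 apart, more than its difference of -0.27. Without replicate 1 it was 5 of 49 genes against 28.9%.

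All 3 mutant arrays lay below both WT arrays for 6 of the 49 genes, namely Rpl14, Rpl12, Rpl37a, Rpl27, Rps26 and Rps2, where 6.29% of all genes did so. For no ribosomal protein gene did all 3 lie above, where 5.73% of all genes did. Counting only replicates 2 and 3, 19 of 49 genes (38.8%, 11 large and 8 small) were below both WT arrays on both, against a background of 17.5%. Of these, 4 were more than 0.1 below the WT mean on both. Some margins were thin, as for Rpl37a on replicate 3 (14.429 against 14.430 and 14.440 on WT). Only 3 of 49, Rps29, Rps3 and Rps6, were above both WT arrays on both replicates, against 26.7%. The 2 directions were thus unequal among these genes and unequal the other way among all genes. Among all 295 probe sets with a mean of at least 13, where 35 of the 49 lie, 34.9% were lower on both and 15.9% higher. That is nearer to the values of these genes, but 60 of the 295 are their own probe sets. The band is therefore not a separate background. Either direction together made 22 of 49, where 44.2% of all genes did so. Replicate 1 lay below both WT arrays for 12 of the 49 and above for 5, against 26.9% and 20.9% of all genes. These shares were not tested, since the genes share arrays and are not replicates.

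Without replicate 1, limma with Benjamini-Hochberg adjustment again passed 0 of 18193 genes (0%; 3730 at an unadjusted p under 0.05, 2 of them ribosomal protein genes), and the medians were -0.075 for the large subunit, -0.022 for the small and 0.021 for all genes. When dim probe sets were also removed, 1 of 47 ribosomal protein genes passed, Rpl14, where 156 of 11626 genes (1.34%) were lower and 383 (3.29%) higher, 4.64% in all. The array was set aside because of its values, so those p-values are too favourable.

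**Figure D2:**
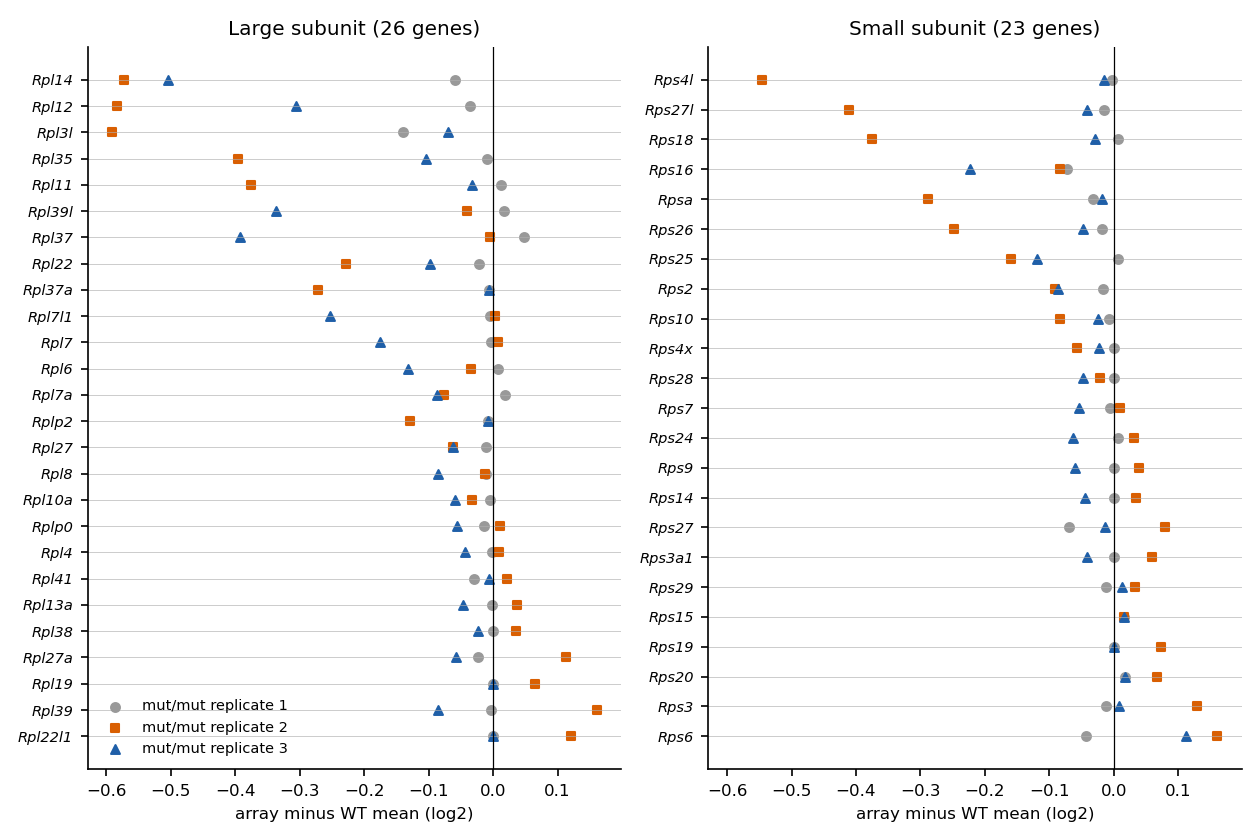
Difference of each mutant array from the WT mean (log2) for the 26 large and 23 small subunit genes, ordered by the difference over all 5 arrays. Replicate 1 lies near 0 for most genes, and replicates 2 and 3 lie below 0 for Rpl14, Rpl12 and Rpl35. Genes such as Rps4l and Rpl37 are far below 0 on a single array and close to 0 on the others.

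The acidic stalk of the large subunit recruits translation factors. Rpl12, at the base of the stalk, read 10.04 and 9.998 on WT and 9.98, 9.43 and 9.71 on mutant replicates 1, 2 and 3. The 3 mutant values were all lower, but replicate 1 only just. The difference was -0.31 (SE 0.18; limma, Benjamini-Hochberg adjusted p = 0.748), and without replicate 1 and dim probe sets it was -0.44 (adjusted p = 0.109). Rplp0, the scaffold of the stalk, read 13.80 and 13.83 on WT and 13.80, 13.82 and 13.76 on the mutant arrays, which overlap. Rplp2, an acidic tip protein, read 14.43 and 14.45 on WT and 14.43, 14.31 and 14.43 on the mutants. Only replicate 2 stood below the others, by 0.13 from the WT mean.

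Rpl14, a protein of the large subunit, had the lowest difference of all 49 genes. It read 9.12 and 9.09 on WT and 9.05, 8.54 and 8.60 on mutant replicates 1, 2 and 3. Replicates 2 and 3 were below the other 3 arrays, which lay close together. The difference over all 5 arrays was -0.38 (SE 0.18; limma, Benjamini-Hochberg adjusted p = 0.748). Without replicate 1 and dim probe sets Rpl14 fell by 0.54 (SE 0.07), or 1.45-fold (adjusted p = 0.048), while without replicate 1 alone the adjusted p was 0.078. The gene had a single probe set on these arrays, so no other probe set bears on it.

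Rpl11 forms a particle with 5S ribosomal RNA and Rpl5 and is a known Mdm2 binder. It read 13.84 and 13.85 on WT and 13.86, 13.47 and 13.82 on mutant replicates 1, 2 and 3. Only replicate 2 was well below the rest, and the difference was -0.13 (SE 0.14; limma, Benjamini-Hochberg adjusted p = 0.757), or -0.20 without replicate 1 (adjusted p = 0.527).

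Proteins around the peptide exit tunnel gave mixed values. Rpl35, at the mouth of the tunnel, read 14.14 and 14.22 on WT and 14.17, 13.78 and 14.08 on mutant replicates 1, 2 and 3, so replicate 2 was 0.40 and replicate 3 was 0.10 below the WT mean. Rpl22, an RNA-binding protein, read 14.01 and 13.96 on WT and 13.96, 13.76 and 13.89 on the mutants, and both later replicates were below both WT arrays. Rpl4, in the tunnel wall, read 13.96 on both WT arrays and 13.96, 13.97 and 13.91 on the mutants, a difference of -0.01. Rpl39, a small tunnel protein, was dim at 5.62 on both WT arrays, with 5.62, 5.78 and 5.53 on the mutants, which lie on both sides of WT. None of the 4 passed the test.

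Rpl19, which bridges the subunits, read 13.91 on 4 of the arrays and 13.97 on mutant replicate 2. Rpl38, known for its part in translating Hox messenger RNAs, read 14.32 on both WT arrays and 14.32, 14.36 and 14.30 on mutant replicates 1 to 3. Rpl27a, which lies close to the peptidyl transferase region, read 8.17 and 8.21 on WT and 8.17, 8.30 and 8.13 on the mutants. For these 3 genes the mutant arrays lay on both sides of WT or at it, and the differences (0.02, 0.00 and 0.01) changed sign for Rpl38 and Rpl27a when the array medians were set equal.

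The mRNA entry and head proteins of the small subunit gave mixed values. Rps2, at the entry channel, read 14.33 and 14.30 on WT and 14.30, 14.22 and 14.23 on mutant replicates 1, 2 and 3, with all 3 mutants lower by a margin that was thin for replicate 1. Rps3, its neighbour at the entry, read 13.77 and 13.79 on WT and 13.77, 13.91 and 13.79 on the mutants. It stood out upward on replicate 2, while replicate 3 was only just above the higher WT array (13.788 against 13.786). Rps10, a head protein, read 14.01 and 13.99 on WT and 13.99, 13.92 and 13.97 on the mutants. Rps19, the gene most often mutated in Diamond-Blackfan anaemia, read 13.95 on 4 arrays and 14.02 on replicate 2. Rps20, a head protein, had a difference of 0.03 and Rps18, which contacts transfer RNA sites, -0.13. The latter came from replicate 2 alone (13.73 against 14.06 to 14.15 on the other arrays). It was not seen on Rps18 probe sets of like brightness, at 13.98 and 13.96, where replicate 2 was 0.005 and -0.010 from the WT mean. On the gene's dim probe sets, at 5.67, 5.06 and 4.57, it was lower (-0.29, -0.13 and -0.40).

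Rpsa, the laminin receptor precursor that sits on the small subunit, read 14.14 and 14.19 on WT and 14.14, 13.88 and 14.15 on mutant replicates 1, 2 and 3, a difference of -0.11. Rps26, at the mRNA exit, read 14.14 and 14.17 on WT and 14.14, 13.91 and 14.11 on the mutants. Its 3 mutant values were below both WT values, again mostly through replicate 2. Rps15, near the decoding site, and Rps7, which also binds Mdm2, had differences of 0.02 and -0.02.

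Rps6, the substrate of the S6 kinases that act downstream of mTORC1, had the highest difference of all 49 genes. It read 8.29 and 8.39 on WT and 8.30, 8.50 and 8.45 on mutant replicates 1, 2 and 3. Replicates 2 and 3 were above both WT arrays and replicate 1 lay between them. The difference was 0.08 (SE 0.08; limma, Benjamini-Hochberg adjusted p = 0.763), or 0.14 without replicate 1 (adjusted p = 0.338).

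Paralogues of core proteins included the widest gaps between single arrays. Rps4l, a paralogue of Rps4x, read 12.82 and 12.83 on WT and 12.82, 12.28 and 12.81 on mutant replicates 1, 2 and 3, so that replicate 2 alone was 0.55 lower, while Rps4x had a difference of -0.03. Rps27l, a p53-inducible paralogue of Rps27, read 13.33 and 13.36 on WT and 13.33, 12.93 and 13.30 on the mutants. Replicate 2 was again the low array on this probe set, the brightest of the gene, but its other probe sets disagreed. On the next, at 12.96, replicate 2 was the highest array (0.26 from the WT mean). On the dimmest, at 12.77, replicate 2 was the lowest (-0.25). Rps27 itself read 8.02 and 7.99 on WT and 7.93, 8.08 and 7.99 on the mutants. Rpl39l, abundant in testis, read 10.60 and 10.57 on WT and 10.60, 10.54 and 10.25 on the mutants, where it was replicate 3 that was low. Rpl7l1 showed the same pattern with 10.34 and 10.33 on WT and 10.33, 10.34 and 10.08 on the mutants. Its partner Rpl7 did so less, with 13.78 and 13.77 on WT and 13.77, 13.78 and 13.60 on the mutants. Rpl22l1 was higher on replicate 2 only, by 0.12. Rpl3l, a muscle paralogue, was dim, and its WT arrays differed by 0.31, more than those of any other of the 49 genes.

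Replicates 2 and 3 therefore did not single out the same genes. Replicate 2 was more than 0.1 below the WT mean for 14 of the 49 and replicate 3 for 10, with 4 in common (Rpl12, Rpl14, Rpl35 and Rps25), and only Rps6 was more than 0.1 above on both. The 2 arrays had opposite signs in 15 genes. The median distance between replicates 2 and 3 was 0.09 over these genes (0.16 over all genes), against 0.016 between the WT arrays (0.05 over all genes). On replicate 2, 23 of 49 were below both WT arrays and 20 above, against 28.6% and 47% of all genes; on replicate 3 the counts were 35 below and 3 above, against 36.5% and 37.6%. The median shift on replicate 2 was -0.023 for the large and 0.010 for the small subunit, and on replicate 3 it was -0.067 and -0.028.

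The shift also differed between bands of brightness, without an order from dim to bright. Of the 105 probe sets, 60 had a mean of at least 13, a band that holds only 0.655% of all probe sets. There replicates 2 and 3 differed from WT by a median of -0.043, from -0.31 to 0.07. Of the 60, 26 were below both WT arrays on both and 3 above, against 34.9% and 15.9% of all probe sets in the band. Shares and medians over all probe sets of this band include the 60 themselves. The 33 probe sets between the overall median and 13 had a median of -0.14, from -0.64 to 0.41, with 14 lower and 4 higher, where 22.7% and 31% of all probe sets were. The 12 below the overall median had a median of -0.059, close to that of the brightest band, with 2 lower and 2 higher (9.3% and 10.8% of all). Over all probe sets the medians of the 3 bands, from bright to dim, were -0.034, 0.023 and 0. Whether signal saturation limits the bright band was not tested.

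**Figure D3:**
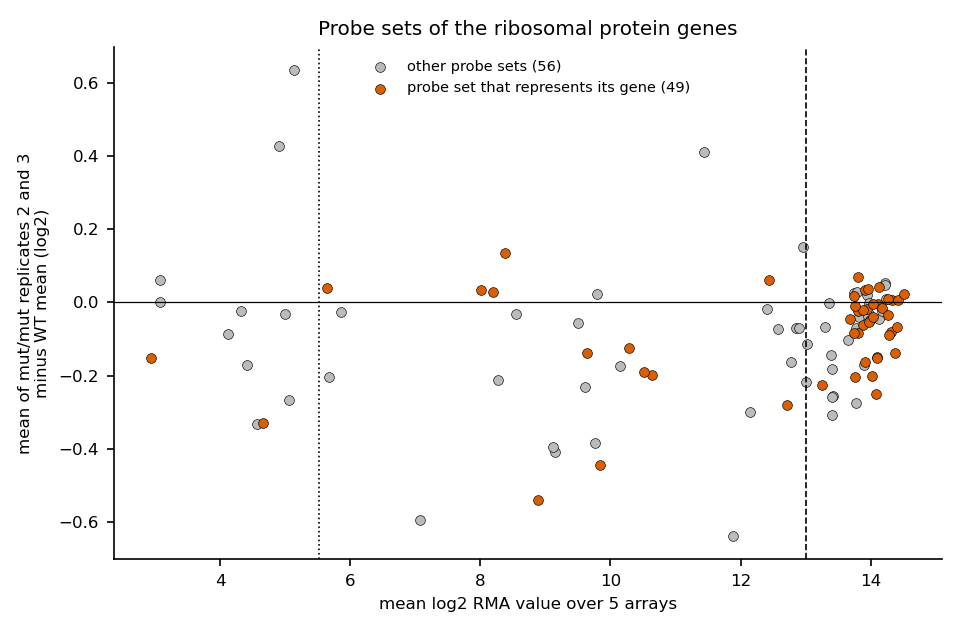
Each point is a ribosomal protein probe set, by mean log2 value over 5 arrays and by the mean of mutant replicates 2 and 3 minus the WT mean (log2), with the 49 representative probe sets in orange, the other 56 in grey, and lines at 5.52 (dotted) and 13 (dashed). The 60 probe sets at or above 13 lie between -0.31 and 0.07, while those between the median and 13 spread from -0.64 to 0.41.

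Several genes showed this between their own probe sets. Of 20 genes with at least 2 probe sets above the overall median, the brightest probe set had a median shift of -0.028 and the dimmest -0.17, and the signs were opposite in 5. Rpl13a, part of the complex that silences inflammatory messenger RNAs, shifted by -0.005 on its brightest probe set and -0.64 on another at 11.89. For Rps10 the values were -0.054 and -0.60, for Rpl41 they were 0.007 and -0.39, and for Rps3 0.069 and -0.39. The dimmer probe set was not lower in 9 of the 20, as for Rpl35 (-0.25 against -0.03). A probe set of Rps9 at 11.44 read 0.41 higher, where its brightest probe set shifted by -0.01. Ribosomal protein genes have many processed pseudogenes, and 40 of the 105 probe sets carry the maker's mark for possible cross-hybridisation, so values of single probe sets are uncertain.

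Other lists of ribosome production had medians farther below 0 than the ribosomal proteins, but the lists were not matched for brightness. On WT replicate 1 the mean level was 12.56 for the ribosomal proteins, 10.47 for assembly factors and 9.74 for RNA polymerase I genes. It was 10.10 for mitochondrial ribosomal proteins and 12.84 for the TOP translation factors. Ribosomal protein probe sets between the overall median and 13 had a median of -0.14 on replicates 2 and 3. Of 72 ribosome assembly factors, 57 (79.2%) were below both WT arrays on replicates 2 and 3 and none above, against the backgrounds of 17.5% and 26.7%. Their median difference was -0.17 over all 5 arrays and -0.25 without replicate 1, and 0 passed limma with Benjamini-Hochberg adjustment in either fit (26 at an unadjusted p under 0.05 without replicate 1 and dim probe sets). Noc2l, a nucleolar assembly factor, read 9.37 and 9.52 on WT and 9.33, 8.47 and 9.14 on mutant replicates 1, 2 and 3. Pes1, of the complex that matures 28S rRNA, read 11.02 and 11.06 on WT and 11.00, 10.15 and 10.78 on the mutants. Emg1, an rRNA methyltransferase, read 12.20 and 12.16 on WT and 12.20, 11.31 and 11.86 on the mutants. In all 3 genes replicate 2 was the lowest array and replicate 3 the next.

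Of 17 genes for RNA polymerase I and its factors, 9 were lower on both replicates and 3 higher (17.5% and 26.7% of all genes), with a median difference of -0.15 over all 5 arrays and -0.21 without replicate 1. Taf1d, a subunit of the promoter selectivity factor, read 10.32 and 10.23 on WT and 10.26, 9.78 and 9.76 on mutant replicates 1 to 3, where replicates 2 and 3 were alike. Its difference without replicate 1 and dim probe sets was -0.51 (limma, Benjamini-Hochberg adjusted p = 0.050, not past the threshold). Ddx21 and Polr2h had -0.43 and -0.46 in the same fit.

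Translation factors whose messenger RNAs also begin with a TOP motif had a median of -0.12 (-0.18 without replicate 1), with 9 of 16 lower on both replicates and none higher, against 17.5% and 26.7% of all genes. Hnrnpa1, a TOP-encoded splicing factor, read 11.46 and 11.50 on WT and 11.51, 10.69 and 11.21 on mutant replicates 1 to 3. Eif3f, of the initiation factor eIF3, and Naca, of the nascent chain complex, differed by -0.51 and -0.38 without replicate 1 and dim probe sets. None passed the test. Mitochondrial ribosomal proteins had a median of -0.091 over 5 arrays and -0.12 without replicate 1. Of these, 40 of 76 were lower on both replicates and 8 higher, against the same backgrounds of 17.5% and 26.7%. Fau, which encodes the small subunit protein eS30 but is not named Rps, had a difference of 0.03.

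Among 18 genes of mTORC1, Larp1 and Myc, 5 (27.8%) were lower on both replicates and 4 higher, near the backgrounds of 17.5% and 26.7%, and the median was 0.034 (0.060 without replicate 1). Mycn, a Myc family factor that drives growth, fell by 0.75 without replicate 1 and dim probe sets (limma, Benjamini-Hochberg adjusted p = 0.047). Its difference over all 5 arrays was -0.51 (adjusted p = 0.748, limma), and without replicate 1 alone the adjusted p was 0.083, so neither passed. It read 11.42 and 11.40 on WT and 11.40, 10.75 and 10.57 on mutant replicates 1 to 3. Larp1, which binds TOP messenger RNAs, and Eif4e, the cap-binding protein, differed by -0.57 each without replicate 1 and dim probe sets, and neither passed. Of 6 genes around p53 and Mdm2, 3 were higher on both replicates, namely Mdm2, Mdm4 and Bbc3, where 26.7% of all genes were. The median over the 6 genes was 0.094, or 0.18 without replicate 1. Mdm2 read 11.10 and 11.07 on WT and 11.12, 11.84 and 11.60 on the mutants. Its adjusted p was 0.058 without replicate 1 and dim probe sets (limma), not past the threshold. Cdkn1a, a p53 target, read 11.72 and 11.74 on WT and 11.72, 11.69 and 12.12, so only replicate 3 was higher.

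**Figure D4:**
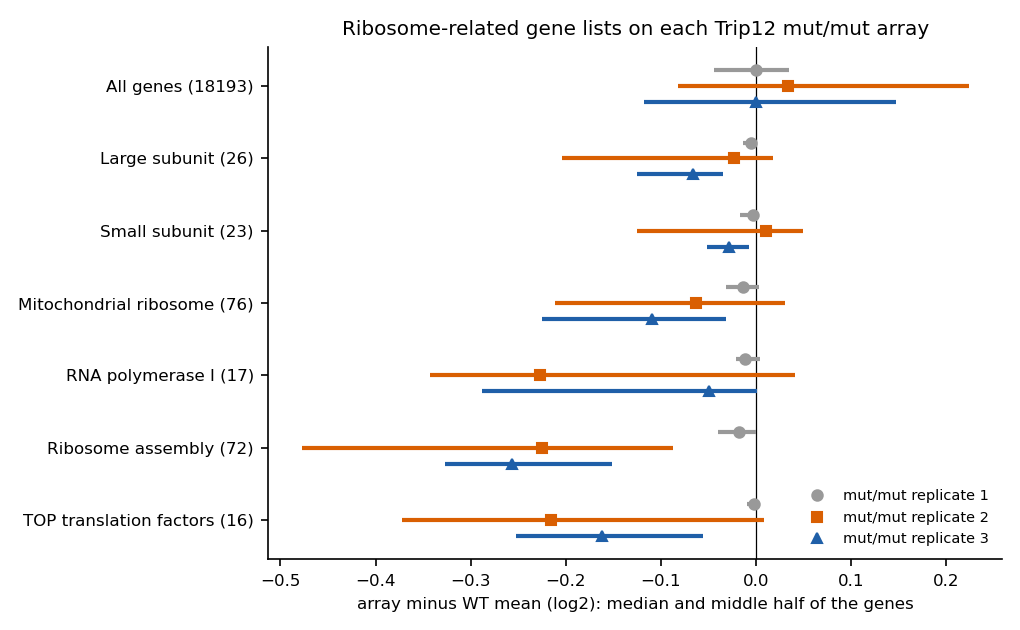
Median shift from the WT mean (log2) on each mutant array for the ribosomal protein genes, 4 other lists of ribosome production and all genes, with bars from the first to the third quartile of the genes. On replicates 2 and 3 the ribosome assembly list lies near -0.22 and -0.26, below the large subunit list at -0.02 and -0.07. The lists were not matched for brightness.

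These lists, too, were compared by counts and medians without a test of the difference between them. The fibroblast and pluripotency values given for the arrays move with the same replicates 2 and 3, and their part in these shifts was not tested.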

How the data were processed

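RNA was measured on 5 Affymetrix arrays (2 WT, 3 Trip12 mut/mut). The authors deposited log2 values, 1 per probe set and array, made with RMA, per the submitters' processing notes. No version of RMA is given in these sources, and the scanner output was not analysed here. RMA sets the arrays to a common distribution, so a shift shared by all transcripts cannot be seen. Array medians were 5.51 to 5.55, and the number of arrays limits the precision.

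After removal of 64 controls, 45037 probe sets remained: 34945 with 1 symbol, 932 with several and 9160 with none. Symbols were updated by gene number (GRCm38.p6). Each gene took its probe set with the highest mean. Differences were tested with limma 3.58.1 (R 4.3.3; lmFit, eBayes, genotype only, two-sided, Benjamini-Hochberg over all genes, threshold 0.05), a procedure tested on simulated data. Dim probe sets were those with fewer than 2 arrays above 5.52. A gene was named if it was among the 5 largest differences per direction and subunit, passed the test, had a set role in the ribosome, or was among the 3 leading genes of another list. Rpl13a, Rpl41, Rps9, Rps29, Rpl27, Rpl37a, Rpl37, Rps16, Rps25 and Bbc3 were named after their values were seen, as was the choice of printed promoters. Members and lists were chosen with earlier results of these data known.

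The replicate numbers were checked for pairing: deviations of same-numbered arrays correlated at -0.048 and -0.084, so they do not pair the samples. Alternatives were quantile normalisation, equal medians, removal of dim probe sets, other variance models, array weights, a replicate block, other probe sets per gene and each array left out.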

Additional observations from a re-analysis of the deposited data

How the results depend on the processing

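Over the alternatives, 670 of 703 values of 48 named genes kept their direction and their side of the threshold, and 2, Rpl14 and Mycn, passed it without mutant replicate 1 and dim probe sets (-0.54 and -0.75), where 539 genes passed in all and 1 ribosomal protein gene, against 0 and 0. The large subunit median (-0.048) stayed below 0 in every alternative run, from -0.079 with the probe set of largest SD to -0.012 without mutant replicate 3. The small subunit median (-0.016) was -0.051 with the mean of probe sets, -0.065 with the probe set of largest SD, -0.090 on unmarked probe sets, -0.057 on the dimmest probe set above the median and 0.010 with mutant replicate 2 alone; the last 2 were added after seeing the data, as were mutant replicate 3 alone and probe sets of several symbols. Without mutant replicate 3 it turned to 0.0026. The replicate block equals leaving out mutant replicate 3, because that number has no WT partner. It gave -0.012 and 0.0026, with 0 genes past the threshold. The numbers showed no pairing of the arrays, within the limit given above.

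Directions turned in 11 genes, all of small difference. With the block, Cdkn1a was -0.027, Rpl4 0.0035, Rpl7 0.0022, Rps7 0.0026 and Rps27 0.0056. Quantile normalisation gave Rpl27a -0.011 and Rplp0 0.0029. Equal medians gave Rpl27a -0.0031 and Rpl38 -0.0098. Array weights gave Rpl27a -0.014, Rpl38 -0.0056 and Rpl39 -0.014. The mean of probe sets gave Rps15 -0.099 and Rps3 -0.094, the probe set of largest SD -0.21 and -0.27, and unmarked probe sets -0.27 for Rps3. Rps27 was 0.033 without mutant replicate 1 and dim probe sets. The cause was not tested. Leaving out each array in turn gave Cdkn1a -0.027 to 0.19, Rpl27a -0.041 to 0.045, Rpl38 -0.012 to 0.017, Rpl39 -0.044 to 0.079, Rpl4 -0.022 to 0.0035, Rpl7 -0.090 to 0.0022, Rps15 -0.012 to 0.046, Rps27 -0.041 to 0.033, Rps3 -0.0014 to 0.069, Rps7 -0.030 to 0.0026.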

Other observations

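Probe sets that carry several gene symbols gave values for 26 of the 28 ribosomal protein symbols found only there: 21 of the large subunit with a median difference of -0.047, from -0.19 to 0.03, and 5 of the small subunit with a median of -0.0049, from -0.03 to 0.02. None passed limma with Benjamini-Hochberg adjustment (0 at an unadjusted p under 0.05). On mutant replicates 2 and 3 both below both WT arrays were 10 of the 21 and 1 of the 5, and 1 of the 21 was above, against 17.5% below and 26.7% above over all genes. These values cannot be assigned to a single gene.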
